A study of Mus musculus with 4 samples.

Results

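Chromosome 1 of the mouse was followed by 3699 array probes, which are all the probes that the array places on it, of 54677 distinct probes in all. They were chosen by position alone, and no measured value entered the choice. All 3699 were left on the 4 arrays after filtering, of 54669 probes over the genome and 52385 on autosomes. The first began and the last ended at chr1:4266481-197188537 on build mm9, and the median distance between neighbours was 19.6 kb. Of these probes 2984 carry a gene name in the array design and 715 carry none. Mean GC content was 36.1% on chromosome 1 and 36.3% on the other autosomes.

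Genomic DNA of liver cells was compared with DNA of normal liver by array comparative genomic hybridisation, in which differently dyed DNAs compete for the same probes and the log2 ratio of the signals reports relative copy number. The 4 samples have the genotype TAK1LPC-KO_RIP3-_- and were set against a pool of 4 normal livers. By the study's title this is a deficiency of TAK1 in liver parenchymal cells (LPC) combined with a Rip3 knockout, so all samples lack RIP3. TAK1 is a kinase that relays TNF receptor signals to NF-kB, and RIP3 is a kinase of necroptosis. The strain, age and sex, what drives the deletion, the genotype of the pool's animals and whether samples came from separate animals are not given in the sources used here. Each p-value thus reflects how far these 4 samples differ among themselves, and that spread may be technical. In the limma tests the spread is pooled, in part or wholly, over all features tested together. DNA came from sections of formalin-fixed, paraffin-embedded tissue, and the samples carried Cy5 on all arrays with no dye swap. Slide 1 carried replicates 1 and 2, and slide 2 carried replicates 3 and 4. Well above background on all 4 arrays were 79.9% of chromosome 1 probes in the sample channel and 94.2% in the pool channel, and 82.4% and 93.9% of those on the other autosomes.

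Chromosome 1 is among the largest mouse chromosomes. Besides genes for liver metabolism and plasma proteins, it holds clusters for the SLAM and Fc receptors of immune cells, the interferon-inducible Ifi200 proteins and the complement regulators. Where every cell has lost 1 of its 2 copies of a region, the log2 ratio is expected at -1, and where only some cells have, it lies nearer 0. A median over many probes resolves shifts that are far smaller than the scatter of a single probe.

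The probes below carry the largest single values of the chromosome and the only segment found on it. They are printed 5′ to 3′ as the array files give them, with positions on mm9; the strand is not stated. The first 5 lie next to each other and make up the segment at the intelectin gene Itln1 and the receptor gene Cd244. The next 3 are its nearest neighbour on the left and 2 further Cd244 probes of opposite ratio. Then come the other 2 highest and the 3 lowest probes of the chromosome among those well above background in both channels on all arrays.
chr1:173444942-173445001, unnamed: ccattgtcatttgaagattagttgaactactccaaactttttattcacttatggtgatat
chr1:173459315-173459374, Itln1: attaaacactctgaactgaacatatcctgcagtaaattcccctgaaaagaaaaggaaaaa
chr1:173463473-173463517, Itln1: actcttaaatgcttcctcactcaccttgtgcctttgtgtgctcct
chr1:173470547-173470606, unnamed: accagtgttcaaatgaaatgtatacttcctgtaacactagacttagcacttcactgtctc
chr1:173493944-173494003, Cd244: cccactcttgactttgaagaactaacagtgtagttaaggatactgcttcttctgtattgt
chr1:173443893-173443952, unnamed: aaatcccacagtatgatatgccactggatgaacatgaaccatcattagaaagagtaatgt
chr1:173503955-173504014, Cd244: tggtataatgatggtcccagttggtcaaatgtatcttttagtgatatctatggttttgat
chr1:173511353-173511412, Cd244: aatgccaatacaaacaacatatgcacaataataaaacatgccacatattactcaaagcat
chr1:21254995-21255054, Gsta3: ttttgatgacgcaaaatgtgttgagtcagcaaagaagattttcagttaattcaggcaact
chr1:141420188-141420247, F13b: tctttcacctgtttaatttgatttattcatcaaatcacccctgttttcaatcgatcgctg
chr1:75503366-75503416, AK080818: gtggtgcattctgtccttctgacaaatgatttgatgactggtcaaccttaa
chr1:174257288-174257345, Kcnj9: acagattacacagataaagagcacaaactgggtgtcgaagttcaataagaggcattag
chr1:161427515-161427574, unnamed: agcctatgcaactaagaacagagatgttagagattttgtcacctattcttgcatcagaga

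Chromosome 1 as a whole lay slightly below the pool. Its median log2 ratio was -0.069, -0.073, -0.095 and -0.098 on replicates 1 to 4. All 4 arrays were on the same side of 0, with a mean of -0.084 ± 0.015 (SD, n = 4; limma over the 19 autosomal medians with Benjamini-Hochberg adjustment, adjusted p = 4.11e-06). Of the 19 autosomes 52.6% were called lower and 31.6% higher at an adjusted p under 0.05, so a call of this kind is common here. The exact two-sided sign-flip permutation test gave p = 0.13, the smallest that 4 arrays allow, so that it cannot pass 0.05. The shift is far from the -1 of a 1-copy loss in every cell, and it is relative to the median of all autosomal probes, which was set to 0 on each array.

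Only chromosome 11 had a lower mean median, at -0.095, and chromosomes 2, 15 and 18 were close to chromosome 1. In tests of the differences, chromosome 1 was lower than 14 of the 18 other autosomes (77.8%) and higher than 0 (limma; 0 at an unadjusted p under 0.05 as well). The largest differences were to chromosome 13, at -0.26 ± 0.052, chromosome 8, at -0.25 ± 0.025, and chromosome 14, at -0.20 ± 0.015 (SD, n = 4; limma, adjusted p = 1.99e-06, 9.38e-08 and 9.38e-08). These 3 chromosomes lay above the pool. The 4 neighbours in level did not pass: chromosome 2 (difference -0.010 ± 0.017), chromosome 11 (0.011 ± 0.025), chromosome 15 (-0.0064 ± 0.0091) and chromosome 18 (-0.015 ± 0.0078; limma, adjusted p = 0.0704).

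**Figure D1:**
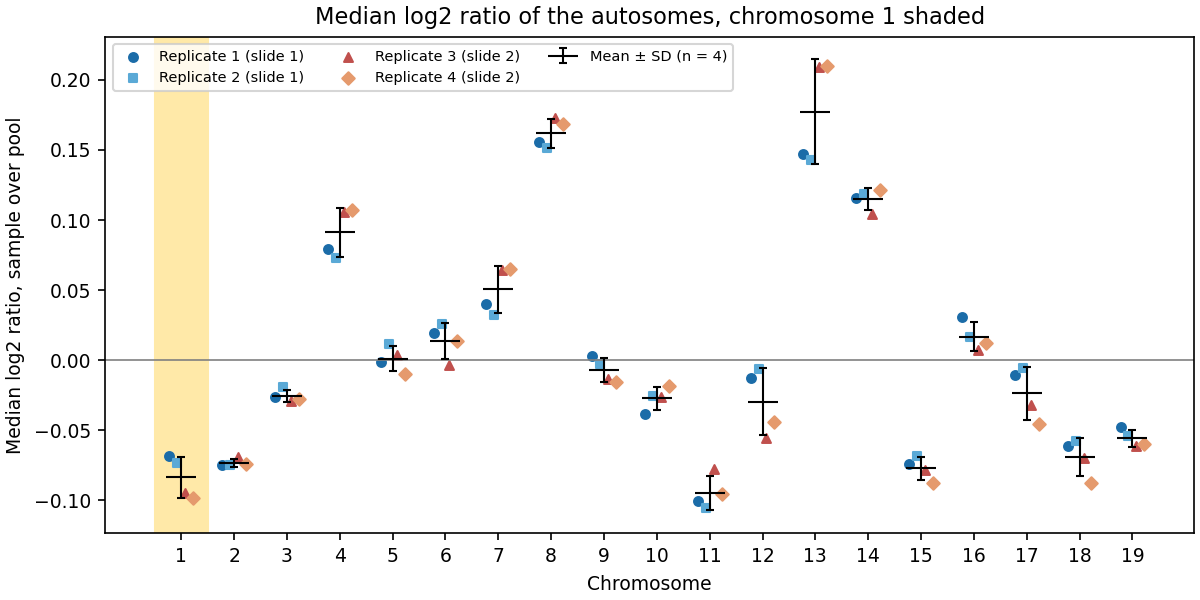
Median log2 ratio of sample over pool (vertical axis) for each autosome (horizontal axis), chromosome 1 shaded; symbols are the 4 arrays, black bars the mean ± SD. Chromosome 1, at -0.084, sits with chromosomes 2, 11, 15 and 18 at the low end, and chromosomes 8, 13 and 14 at the high end.

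The 2 slides gave different levels. Replicates 3 and 4 of slide 2 averaged -0.096 and replicates 1 and 2 of slide 1 averaged -0.071, a difference of -0.026 (limma over 19 autosomes, adjusted p = 0.000766; 26.3% of autosomes were lower and 26.3% higher on slide 2 in this test). The chromosome was below 0 within each slide. With arrays centred on the mode of the probe values in place of the median, the slide difference was 0.0015 (limma, adjusted p = 0.949).

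The shift ran through the whole distribution of probe values and did not come from a tail. The 5th percentile of chromosome 1 probes was -0.86 and that of other autosomal probes -0.76. At the 25th percentile the values were -0.36 and -0.28, at the 75th 0.19 and 0.28, and at the 95th 0.59 and 0.70. Chromosome 1 minus the others was thus -0.095, -0.077, -0.099 and -0.11 at these 4 points (means of 4 arrays), and it was negative on every array at each. Below 0 on all 4 arrays were 34.0% of chromosome 1 probes, against 26.1% on the other autosomes. Above 0 on all 4 were 18.2%, against 27.2%. Pairs of arrays correlated at 0.588 to 0.681 over the 3699 probes, a description over probes that share array and dyes.

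The lower level was present in every class of GC content on all 4 arrays, except at 40% to 45% GC on replicate 1. Probes of 35% to 40% GC, which make up 2719 of the 3699, had a median of -0.079 ± 0.018 on chromosome 1 and 0.020 ± 0.0028 on the other autosomes (SD, n = 4). Probes under 30% GC gave -0.077 and 0.047, those of 30% to 35% gave -0.030 and 0.065, those of 40% to 45% gave -0.20 ± 0.027 and -0.16 ± 0.012 (-0.167 and -0.173 on replicate 1), and those of at least 45% gave -0.39 and -0.28. Probes of the highest GC content had the lowest ratios on chromosome 1 as on the other autosomes.

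Probes without a gene name were lower than probes within named genes. On replicates 1 to 4 the 715 unnamed probes had medians of -0.11, -0.11, -0.16 and -0.17, and the 2984 named probes -0.060, -0.066, -0.083 and -0.083. The difference, unnamed minus named, was -0.064 ± 0.023 (SD, n = 4; limma over 19 autosomes, adjusted p = 6.84e-07), negative on all 4 arrays. In this test 42.1% of autosomes were lower and 15.8% higher, so the direction was not peculiar to chromosome 1. Named genes alone also lay below the pool, at -0.073 ± 0.012.

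Along the chromosome the level was uneven. Medians of 5-Mb windows with at least 20 probes were tested over all autosomes, and a window was called at an adjusted p under 0.05 and a mean at least 0.1 from 0. Chromosome 1 has 38 such windows, and 2 further windows, with 28 probes between them, were too thin. Lower than the pool were 13 windows (34.2%; 13.3% of all autosomal windows were called lower), and higher were 0 (24.7% of all autosomal windows were called higher; at an unadjusted p under 0.05 limma gave 21 lower and 0 higher on chromosome 1). The mean was below 0 in 31 windows, below 0 on all 4 arrays in 21 and above 0 on all 4 in 0. Pairs of arrays correlated at 0.565 to 0.711 over the 38 window medians, which share array and dyes.

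The lowest window, 120 to 125 Mb, holds 28 named genes, among them Clasp1, En1, Gli2 and Ptpn4. En1 and Gli2 are transcription factors of embryonic patterning. Its 79 probes had medians of -0.17, -0.26, -0.21 and -0.22, with a mean of -0.21 ± 0.037 (SD, n = 4; limma, adjusted p = 3.43e-07). Next came 135 to 140 Mb, with Kif14, Kif21b and Atp2b4 among 71 genes, at -0.24, -0.20, -0.24 and -0.17 and a mean of -0.21 ± 0.032 (adjusted p = 3.4e-07). In both windows all 4 arrays were below the median of the whole chromosome. The windows at 70 to 75 Mb (-0.19 ± 0.042), 85 to 90 Mb (-0.18 ± 0.050) and 75 to 80 Mb (-0.16 ± 0.036) followed, so that 3 of the 5 lowest fall between 70 and 90 Mb, around Slc4a3, Pax3 and Ecel1. They are not 1 unbroken block, as the window at 80 to 85 Mb lay at -0.029 ± 0.049 and did not pass (limma, adjusted p = 0.264).

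No window stood clearly above the pool. The highest was the first, 0 to 5 Mb, with 21 probes around Rp1 and Tcea1, at -0.028, -0.026, 0.19 and 0.021 (mean 0.039 ± 0.10; limma, adjusted p = 0.266). Replicate 3 alone set that mean above 0, and without it the mean was -0.011. The windows at 195 to 200 Mb, which holds Cr2 and Cd46, 50 to 55 Mb, which holds Stat4, 45 to 50 Mb and 145 to 150 Mb had means of 0.020, 0.019, 0.013 and 0.011. Each of these 4 had arrays on both sides of 0.

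**Figure D2:**
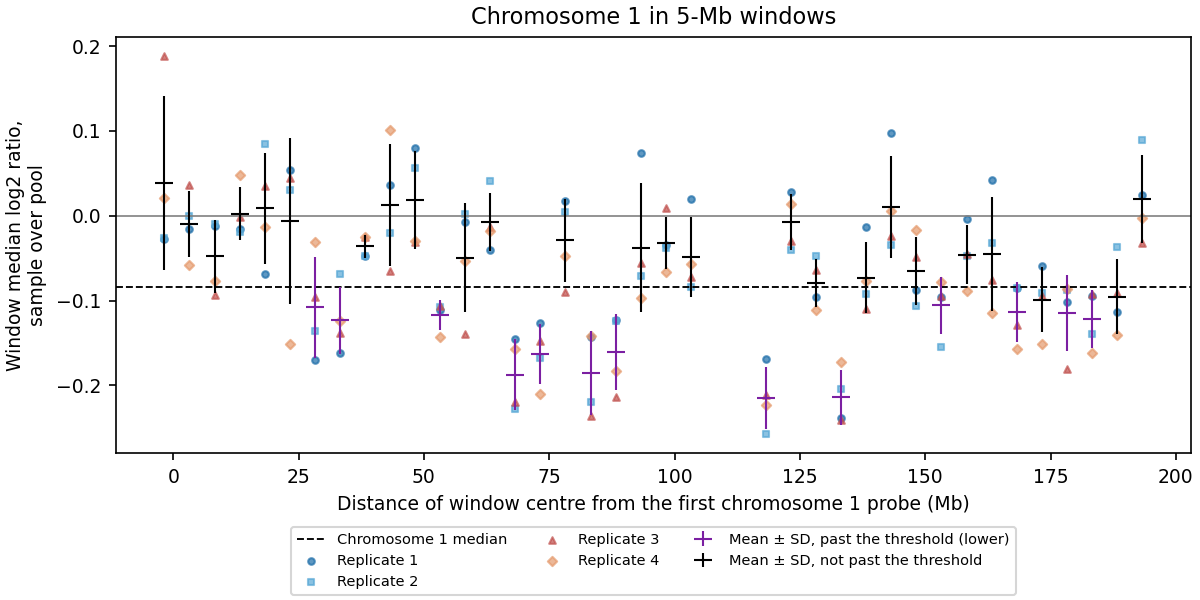
Median log2 ratio of sample over pool (vertical axis) in 5-Mb windows along chromosome 1, by distance of the window centre from the first probe in Mb (horizontal axis); symbols are the 4 arrays and crosses the mean ± SD, purple where the window was called lower. The 13 called windows have means between -0.21 and -0.11, and no window was called higher.

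To ask whether parts of the chromosome stood apart from it, each window was also set against the rest of chromosome 1. Lower than the rest were 4 windows, at 70 to 75, 85 to 90, 120 to 125 and 135 to 140 Mb, with differences of -0.11, -0.10, -0.13 and -0.13 (limma, adjusted p between 0.000143 and 0.0015; 10.5% of its windows, against 8.16% over all autosomes). Higher than the rest were 3, at 0 to 5, 50 to 55 and 195 to 200 Mb, by 0.12, 0.11 and 0.10 (adjusted p between 0.000948 and 0.00572; 7.89%, against 14.9%). Without replicate 2 or without replicate 3 the lower windows numbered 2. Window means moved with GC content, which ran from 34.0% to 37.5% (Pearson r = -0.66, Spearman rho = -0.65 over 38 windows of the same arrays, a description). After a correction for the GC content of each probe and of its 51 neighbouring probes, only 120 to 125 Mb stayed apart from the rest, and all 38 windows were below 0, with a median of -0.082.

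Single genes ran in both directions. The mean of its probes was taken for each gene name, and a gene was called at an adjusted p under 0.05 and a mean at least 0.25 from 0. Of 1319 genes on chromosome 1, 140 were higher than the pool (10.6%; 16.1% of all 20478 autosomal genes were called higher) and 316 were lower (24%; 19.2% of all). The share called in either direction, 34.6%, was close to the 35.4% over all autosomes. The median gene lay at -0.087 on chromosome 1 and at -0.0088 on the other autosomes. Of the genes 501 rest on a single probe. Among the 335 with at least 3 probes 20 were higher (5.97%; 12.6% of such genes over all autosomes) and 61 were lower (18.2%; 12.3%). Counted by probe, 424 of 3699 were higher (11.5%; 18.2% of all autosomal probes) and 892 were lower (24.1%; 18.8%).

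Gsta3 and Cps1 were the highest called genes with at least 3 probes. Gsta3, a glutathione S-transferase that detoxifies electrophiles, had log2 ratios of 1.30, 1.17, 1.13 and 1.17, a mean of 1.19 ± 0.076 (SD, n = 4; limma, adjusted p = 0.000378). All 4 of its probes lay above the pool in the mean of the arrays, from 0.50 to 1.94, and they span chr1:21240421-21255133. The probe at 0.50 was well above background on only 1 array in each channel and read -0.033 on replicate 2. Cps1, the first enzyme of the urea cycle, had 1.72 and 1.58 on slide 1 and 0.56 and 0.69 on slide 2 (mean 1.14 ± 0.60; limma, adjusted p = 0.00765; chr1:67214909-67260701). The slides did not overlap for Cps1, and its 3 probes, all well above background on every array, each lay above the pool at 0.90 to 1.44. Prim2, a subunit of DNA primase, gave 0.84, 0.80, 0.59 and 0.24 (mean 0.62 ± 0.27; adjusted p = 0.00669), with 1 of its 3 probes never well above background in the pool, and at 0.41 on bright probes only.

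The other 7 of the 10 highest genes with at least 3 probes were smaller and less even. Cd244, a SLAM-family receptor of natural killer cells, averaged 0.56 ± 0.15 over probes that ranged from -0.66 to 1.70. F5, coagulation factor V, averaged 0.51 ± 0.057, with probes from -0.099 to 1.37. The centrosome protein gene Cspp1 (0.43), the transcript AK078160 (0.42), the interleukin-36 receptor gene Il1rl2 (0.39), the replication fork translocase gene Zranb3 (0.37) and the cAMP-response factor gene Creb1 (0.33) completed the list (limma, adjusted p between 0.00237 and 0.0162 for these 7). In all of them but AK078160, at least 1 probe was below 0. On bright probes only Cspp1 lay at 0.24, short of the size limit, and no probe of Zranb3 was well above background in both channels on all arrays.

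The lowest gene with at least 3 probes was Slc4a3, an anion exchanger of heart and brain. Its arrays read -0.91, -1.02, -0.92 and -0.91, a mean of -0.94 ± 0.055 (SD, n = 4; limma, adjusted p = 0.000593). Its 3 probes, at chr1:75544864-75553176, were all well above background and gave -1.07, -0.76 and -0.99. Its size depended on the processing, at -0.72 after correction for GC content and -1.33 in the deposited table of log2 values. Gpc1, a glypican of the cell surface, followed at -0.63, -0.98, -0.42 and -0.78 (mean -0.70 ± 0.24; adjusted p = 0.00353). Ecel1, a neuronal metalloprotease, gave -0.60, -0.53, -0.85 and -0.72 (mean -0.68 ± 0.14; adjusted p = 0.0019). In both genes every probe was below 0 in the mean of the arrays. The lowest Gpc1 probe, at -1.19, was dim in the sample on all 4 arrays and read 0.15 on replicate 3. On bright probes only Gpc1 lay at -0.56.

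Clasp1, which binds microtubule plus ends and lies in the lowest window, averaged -0.62 ± 0.080 over 6 probes, and the aminopeptidase gene Rnpep -0.62 ± 0.14. Itm2c (-0.51), Slc35f5 (-0.50) and Pde6d (-0.50), which encodes a carrier of prenylated proteins, were below 0 on all 4 arrays (limma, adjusted p between 0.00163 and 0.0176 for these 5). Every probe of Itm2c, Slc35f5 and Pde6d was below 0 in the mean of the arrays. The lowest Itm2c probe, at -0.89, was dim in the sample on all 4 arrays and read 0.36 on replicate 4. With it left out Itm2c lay at -0.34. Clasp1 probes ran from -1.24, at a probe never well above background in the sample channel, to 0.18. On bright probes only Clasp1 lay at -0.51 and Rnpep at -0.90, the latter resting on 1 of its 3 probes. In Slc35f5, and in Spats2l and 1700019D03Rik at -0.53 and -0.52, 2 of the 3 probes each were never well above background in the sample channel. With such probes left out Slc35f5 lay at -0.55 and 1700019D03Rik at 0.13 (limma, adjusted p = 0.00167 and 0.374), and with another background correction Spats2l lay at 0.0021.

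**Figure D3:**
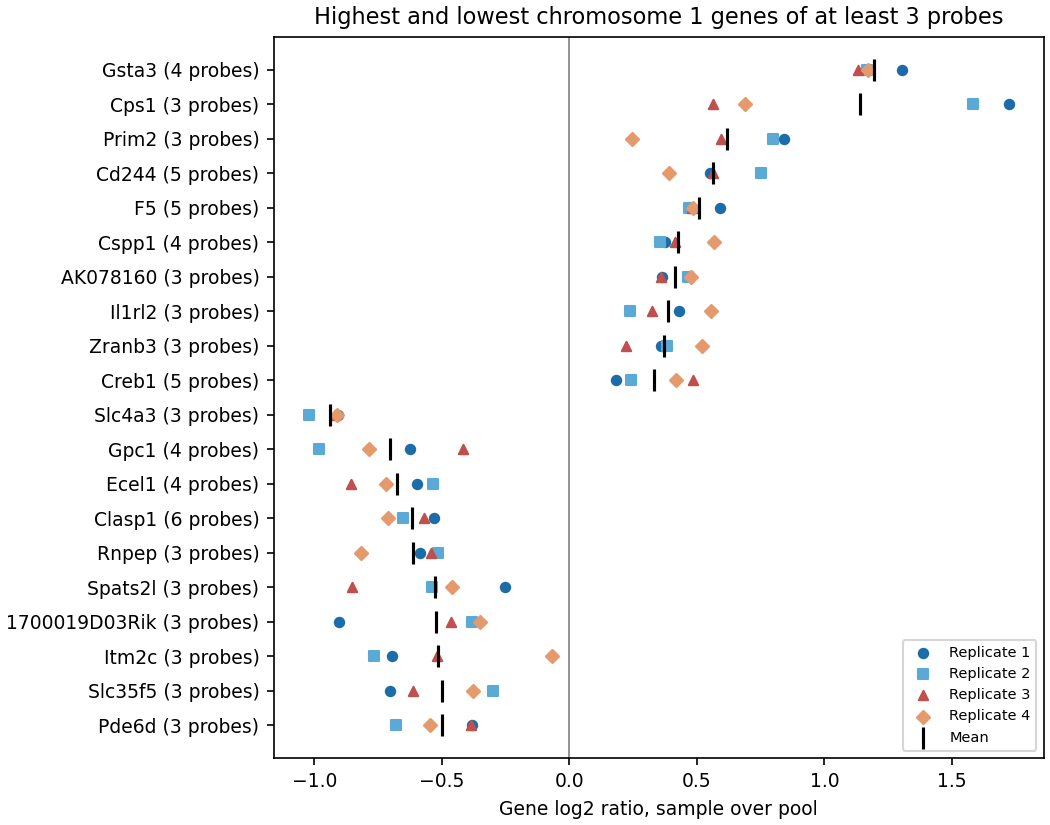
Log2 ratio of sample over pool (horizontal axis) of the 10 highest and the 10 lowest called chromosome 1 genes of at least 3 probes; symbols are the 4 arrays and black ticks the mean. Cps1 splits by slide, whereas the arrays of Gsta3 and Slc4a3 lie close together.

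Large genes, whose means rest on many probes, showed small shifts. Of the 22 genes with at least 10 probes 3 were lower (13.6%; 3.3% of the 182 such genes over all autosomes) and 0 higher (8.24% of the 182; at an unadjusted p under 0.05 limma gave 6 lower and 0 higher on chromosome 1). AK133186, a transcript without a symbol, had -0.38, -0.28, -0.34 and -0.36 over 16 probes at chr1:90342913-90720624 (mean -0.34 ± 0.044; limma, adjusted p = 0.00685). Dst, which encodes the cytoskeletal linker dystonin, averaged -0.26 ± 0.043 over 13 probes, and the kinesin gene Kif26b -0.25 ± 0.025 over 10 (adjusted p = 0.0175 and 0.0177). Both are close to the limit of 0.25. On bright probes only, Dst and Kif26b each lay at -0.21, short of that limit, and AK133186 lay at -0.30. The 3 highest, Sntg1 (0.10), Tmeff2 (0.093) and Ankrd44 (0.045), had arrays on both sides of 0. The median of the 22 was -0.066, against 0.037 over the 182.

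Gene groups were described by their counts beside the shares above and beside the median gene of the chromosome, -0.087. Those shares were 10.6% higher and 24% lower on chromosome 1, and 16.1% and 19.2% over all autosomes. Of 28 measured genes for liver enzymes and transporters 12 were higher and 3 lower, with a median of 0.14. Kmo, an enzyme of tryptophan breakdown, gave 0.64, 1.05, 0.60 and 0.65 (mean 0.73 ± 0.21; limma, adjusted p = 0.00254). Besides Gsta3 and Cps1, the aldehyde oxidase Aox3 (0.71) and the flavin monooxygenases Fmo1 (0.32), Fmo2 (0.37) and Fmo4 (0.29) were higher. The 3 lower genes were Atic of purine synthesis (-0.47), Aox3l1 (-0.40) and Mogat1 (-0.38). Neighbouring, similar genes were thus on opposite sides, Aox3 and Aox3l1 within 1 cluster.

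Plasma protein genes had the highest median of the lists, 0.41, with 5 of 10 measured members higher and 1 lower. Apoa2, a protein of high-density lipoprotein, had 1.86, 1.73, 1.74 and 1.58 at its only probe (mean 1.73 ± 0.11; limma, adjusted p = 0.000144; chr1:173156460-173156511). Crp, C-reactive protein, had 1.07, 1.20, 1.096 and 1.12 at its only probe (mean 1.12 ± 0.057; adjusted p = 0.000393). F13b, a subunit of coagulation factor XIII, had 1.06, 0.90, 0.99 and 1.15 (mean 1.03 ± 0.11; adjusted p = 0.000618), but its 2 probes differed, at 0.32 and 1.73. F5 and Serpinc1, antithrombin (0.54), were higher, and Fn1, fibronectin, was lower at -0.25. Apcs, near Crp in the genome and like it a pentraxin, did not pass at -0.095. Of 6 complement regulators, 3 of which are also counted as plasma proteins, Cr1l was higher at 0.47 ± 0.21 and 0 were lower (limma; 0 lower at an unadjusted p under 0.05).

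TNF and cell death genes are the pathway nearest to the genotype. Of 14 measured 1 was higher and 2 lower, with a median of 0.067. Over chromosome 1 the shares were 10.6% higher and 24% lower, and counts this small do not set the list apart from them. Pea15a, a death-effector-domain protein, had -0.82, -0.76, -0.68 and -0.61 at its only probe (mean -0.72 ± 0.092; limma, adjusted p = 0.00124). Traf5, an adaptor of TNF receptors, gave -0.68, -0.26, -0.26 and -0.59 (mean -0.45 ± 0.22; adjusted p = 0.0123), and Mapkapk2, a kinase downstream of p38, averaged 0.36 ± 0.16 (adjusted p = 0.0147). The 3 Traf5 probes differed, at -1.12, -0.15 and -0.068, and the last had arrays on both sides of 0. Casp8, the caspase that restrains necroptosis, gave 0.25, 0.14, 0.25 and 0.25 (mean 0.22), short of the size limit. Its homologue and inhibitor gene Cflar gave -0.22 ± 0.16 (adjusted p = 0.0617).

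The immune clusters were mixed. Of 15 SLAM and Fc receptor genes 5 were higher and 4 lower, with a median of -0.13. Slamf8, a SLAM-family protein of macrophages, had -1.36, -1.22, -1.23 and -1.13 at its only probe (mean -1.24 ± 0.096; limma, adjusted p = 0.000384). Fcer1g, the signalling chain of Fc receptors, averaged -0.60 ± 0.16, whereas Cd244 and Fcrla were higher at 0.56 each. The list of the interleukin-1 receptor family and the chemokine system also holds the interleukin-10 cytokine cluster and Tlr5. Of its 17 measured genes 2 were higher and 3 lower, with Il19 at 0.50 and Il24 at -0.71, both cytokines of the interleukin-10 family in 1 cluster. The only probe of Cxcr4 was dim in both channels on every array, so that its ratio gives no size. Of 4 Ifi200 genes Mndal was lower at -0.79 ± 0.18 and 0 were higher (limma; 0 higher at an unadjusted p under 0.05).

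Of 14 muscle genes 6 were lower and 1 higher, with a median of -0.17, and of -0.084 after correction for GC content. Speg, a kinase of striated muscle, had -0.78, -0.70, -0.59 and -1.28 (mean -0.84 ± 0.31; limma, adjusted p = 0.00353). Mybph (-0.45, and -0.29 after correction for GC content) and Lmod1 (-0.38), which encode proteins of the muscle filaments, were lower, and Myog, a muscle transcription factor, was higher at 0.38. Of 15 genes of DNA replication and mitosis 3 were higher and 5 lower. The median of their means was -0.17, but the medians on replicates 1 to 4 were -0.052, -0.086, 0.045 and 0.093, on both sides of 0. Among these Prim2 and the kinetochore gene Nuf2 (0.61 ± 0.068) were higher, although the 2 bright probes of Nuf2 differed, at -0.22 and 1.43, and Ube2t, a ubiquitin-conjugating enzyme of DNA repair, was lower at -0.47 ± 0.33.

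Genes known from tumours moved little. Of 22 oncogenes and tumour suppressors 1 was higher and 2 lower, with a median of 0.0048. Nr5a2, a nuclear receptor of liver and pancreas, gave 0.44, 0.48, 0.18 and 0.088 (mean 0.29 ± 0.19; limma, adjusted p = 0.0372). Among the lower ones Mdm4, an inhibitor of p53, averaged -0.29 ± 0.17 (adjusted p = 0.0324). Both Nr5a2 and Mdm4 were within 0.05 of the size limit.

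Of 19 brain channel and adhesion genes, 131 probes in all, 1 was lower and 0 higher (limma; 0 higher at an unadjusted p under 0.05), with a median of -0.13. The lower one was Kcnj9, a potassium channel subunit, whose only probe, printed above, gave -1.37, -1.06, -1.64 and -1.64 (mean -1.43 ± 0.27; adjusted p = 0.000864), and -2.36 in the deposited table of log2 values. Its neighbour Kcnj10 lay at -0.24 ± 0.063 over 3 probes. Of 22 olfactory receptor genes, 21 of them with a single probe, 7 were higher and 3 lower, from Olfr1413 at -0.92 ± 0.067 to Olfr427 at 0.61 ± 0.037, with a median of -0.12 and medians of -0.075 to 0.082 on single arrays. Olfr1411, in the same cluster as Olfr1413, was higher at 0.45 ± 0.14, and at 0.93 after correction for GC content. Of 7 lens crystallin genes Cryge was lower at -0.31 ± 0.18 and 0 were higher (limma; 2 higher at an unadjusted p under 0.05). Of 7 Serpinb genes 0 passed (limma; 1 higher at an unadjusted p under 0.05), and the nuclear body gene Sp100, the only one of its family measured, gave 0.17 ± 0.021 and did not pass.

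**Figure D4:**
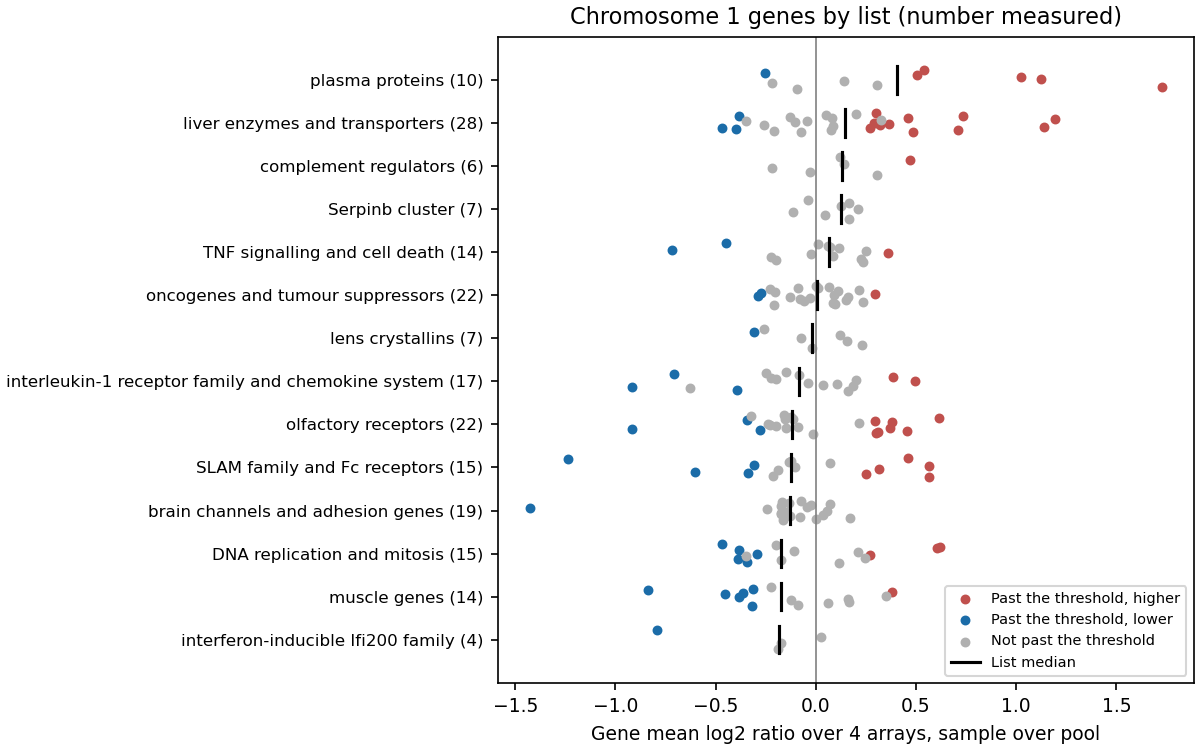
Mean log2 ratio of sample over pool (horizontal axis) of the chromosome 1 genes in each list (rows, with the number measured); red points were called higher, blue points lower, grey points neither, and the black tick is the list's median. Plasma protein genes, with a median of 0.41, and liver enzymes, at 0.14, sit to the right. Ifi200 genes, at -0.18, muscle genes, at -0.17, and DNA replication and mitosis genes, at -0.17, sit to the left. After correction for GC content, not drawn here, these medians were 0.36, 0.19, -0.20, -0.084 and -0.15.

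Dividing each array into segments of at least 5 probes found no break. With a penalty multiplier of 10 the whole of chromosome 1 was 1 segment on each of the 4 arrays and on their mean, with means of -0.096, -0.093, -0.10 and -0.10 on replicates 1 to 4, and 0 segments reached 0.25 from 0. With the lower multiplier of 5, replicate 3 and the mean of the arrays each gave 1 called segment, the same 5 probes at chr1:173444942-173494003 (49.1 kb). The multiplier of 10 passed over these probes although they averaged 1.46 in the mean profile, so it cannot exclude short segments. The smallest shift that it can find was not determined. At that multiplier 7, 8, 7 and 5 segments were called over all autosomes on replicates 1 to 4, and 11 on the mean profile. The region was singled out for description after its values had been seen.

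Its 5 probes averaged 1.32, 1.43, 1.66 and 1.43 on replicates 1 to 4, a mean of 1.46 ± 0.14 (SD, n = 4), or 2.75-fold above the pool. All 5 were well above background in both channels on all 4 arrays. Both Itln1 probes, for an intelectin, a carbohydrate-binding protein of gut mucus, gave 0.83 and 0.80. The unnamed probe at 173470547 was the highest of the whole chromosome, at 2.59, 2.41, 2.49 and 2.57. The left edge was sharp: the nearest unnamed probe on the left lay at -0.23, and the 9 probes within 150 kb before the segment had a median of -0.24. To the right the Cd244 probes alternated, with 0.34, -0.66, 1.70 and -0.25 in order of position, and the 13 probes after the segment had a median of -0.25. The gene content of the intelectin locus is known to differ between inbred mouse strains.

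**Figure D5:**
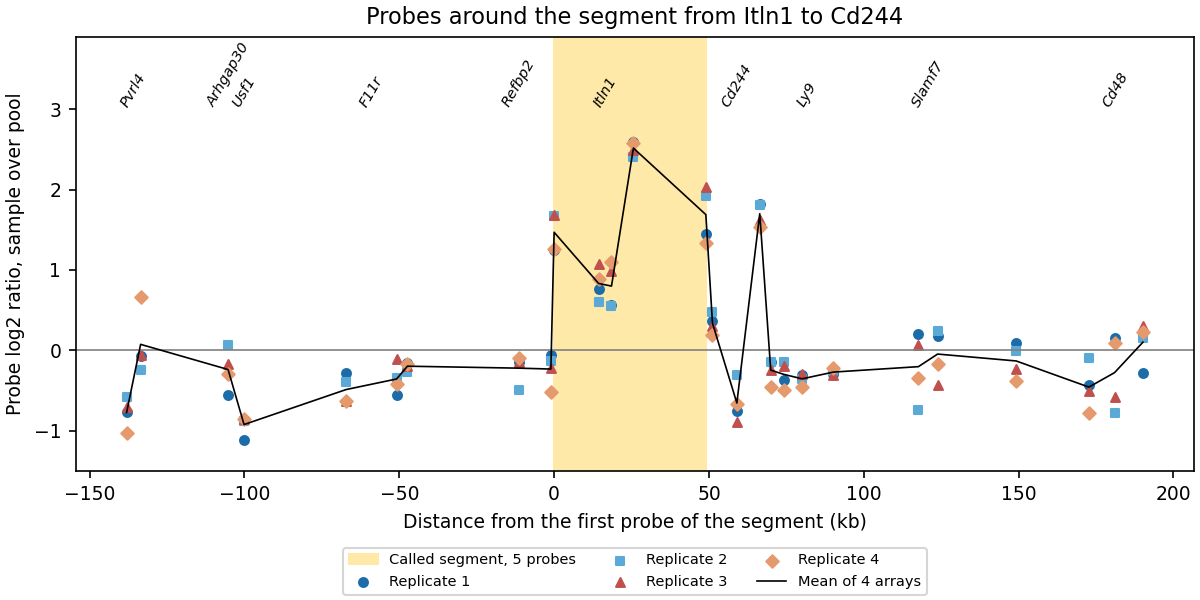
Log2 ratio of sample over pool (vertical axis) of single probes by distance from the first probe of the segment in kb (horizontal axis); symbols are the 4 arrays, the line their mean, and the shading the 5 probes from Itln1 to Cd244. All arrays lie well above 0 in the shaded probes and at 1 further Cd244 probe, and mostly below 0 on both sides.

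A looser search for runs of at least 3 neighbouring probes, each at least 0.5 from 0 in the mean and of 1 sign on all arrays, was added after the values were seen. It found 16 runs on chromosome 1, 5 higher and 11 lower, which held 1.43% of its probes, against 166 runs with 1.09% over all autosomes (81 higher and 85 lower). Apart from the segment, the higher runs lay at Cps1, at Gm4956 near Gsta3 (mean 0.93 ± 0.22), at Fmo1 and Fmo2 (0.74 ± 0.038) and at Kmo (0.71 ± 0.11). Among the lower runs was 1 at Nav1 with 5 probes over 99.5 kb, at -1.19, -1.29, -1.22 and -0.92 (mean -1.15 ± 0.16), of which 2 probes were well above background on every array. Others lay at 1810030J14Rik (-1.24 ± 0.18), Slc4a3, Igsf9 and Tagln2 (-0.86 ± 0.13) and at Slc11a1, Ctdsp1 and Vil1 (-0.65 ± 0.080). The longest run, at Fam20b and Ralgps2, covered 150.5 kb with 3 probes (-0.75 ± 0.11), 1 of them well above background throughout.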

How the data were processed

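Dual-colour arrays of 4 samples against a pool were read, per the file headers, with Feature Extraction 10.10.1.1 of Agilent. The deposited intensity values are, per the file headers, background-subtracted, detrended and dye-normalised by a linear method, with surrogates where a spot was dim. As a check the deposited log10 ratio of sample over pool was compared at spots without surrogates and differed by at most 4.1e-07. The deposited table of log2 values served as an alternative. Its columns correlated at 0.91 to 0.92 with the scanner ratios of their own arrays and had medians of -0.035, 0.029, 0.052 and 0.005. How it was normalised within arrays is not given in these sources. The spread of the derivative log ratio, 0.38 to 0.42, was outside the software's accepted range on all 4 arrays, and precision is limited by the number of arrays.

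From the processed signals log2 of Cy5 over Cy3 was computed per spot. Control spots and spots flagged as outliers were dropped, repeated spots were averaged per probe, and the autosomal median of every array was set to 0. Neither loess nor quantile normalisation was used. Probe positions are on mm9; exons and introns were not used here. Gene names are those of the design; of the 1319 on chromosome 1, 924 are symbols and 112 synonyms in a RefSeq table of GRCm38, used for names only.

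Tests used limma 3.58.1 in R 4.3.3 (lmFit, eBayes; Benjamini-Hochberg) over all autosomes, chromosomes, windows or genes, with the ratio against 0. The spread among normal livers does not enter these tests. The eBayes step draws the variance of each feature towards a value shared by all features of the test. In the test of unnamed against named probes and in the slide test it was wholly shared. There every autosome had the same standard error, 0.011 and 0.0063. The gene and window tests were run on simulated data with independent noise. Segmentation was run with the multiplier of 5 on shuffled chromosome 1 values of the mean profile. The outcomes are not reported here, and the other tests were not simulated. Genes named are the 10 highest and 10 lowest called genes of at least 3 probes with 1 sign on all arrays, 1 per Mb, the 3 highest and 3 lowest of at least 10 probes, up to 3 called members of each list, the 5 highest and lowest windows and the 3 highest and lowest bright probes. Other genes were named after their values were seen, and some list members are counted but not reported by name here. The members, lists and alternatives were chosen with earlier results of these data known. Alternatives were normexp background correction with an offset of 50, centring on the mode, bright probes only, the deposited table, GC corrections, other window sizes, leaving out each array and slide means.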

Additional observations from a re-analysis of the deposited data

Results flagged for a closer look

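Of 66 gene, window and chromosome values checked, 3 had 1 array far from the other 3; chance flags about 1 in 20. Kmo had 1.05 on replicate 2, against 0.60 to 0.65 on the others. F5 had 0.59 on replicate 1, against 0.47 to 0.49. Slc4a3 had -1.02 on replicate 2, against -0.92 to -0.91. Each kept its side of 0 on all 4 arrays.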

How the results depend on the processing

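The chromosome median stayed below 0 and past the threshold under all alternatives run, from -0.113 (centred on the mode) to -0.050 (normexp), and from -0.089 to -0.079 without single arrays. Chromosome 1 was lower than 13 to 17 other autosomes, and unnamed minus named probes gave -0.079 to -0.042. The cause of the changes that follow was not tested, except where fewer or other units were tested by construction. Windows lower than the pool numbered 6 with normexp, 8 with 10-Mb and 22 with 2-Mb windows, and 12 to 13 without single arrays. Windows apart from the rest of the chromosome numbered 2 with normexp (1 higher, 1 lower), 11 with the deposited table (6 higher), 3 with probe GC correction (1 higher, 2 lower), 1 with regional GC correction as well (0 higher, 1 lower), 1 with 10-Mb windows (0 higher, 1 lower) and 21 with 2-Mb windows (12 higher, 9 lower). Without single arrays there were 5 to 8, with 3 to 4 higher and 2 to 4 lower. Genes past the threshold numbered 85 (20 higher, 65 lower) when only those of at least 3 probes were tested, 154 (41 higher, 113 lower) at a size limit of 0.5, and 336 to 382 (98 to 114 higher, 238 to 268 lower) without single arrays; with slide means as 2 samples 88 were higher. Of the 70 calls among list members, slide means left 46, genes of at least 3 probes 19 and single arrays left out 51 to 60. Segments numbered 1 at a penalty multiplier of 5. The slide difference was 0.0015 when centred on the mode, and -0.028 to -0.023 without single arrays.

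Some values changed sign, and not all of the reversed values stayed short of an adjusted p of 0.05. Chromosome 1 minus chromosome 2 was 0.00081, minus chromosome 15 0.016 (limma, adjusted p = 0.0261) and minus chromosome 18 0.0015 with normexp. Minus chromosome 15 it was 0.0017 on bright probes only. Minus chromosome 11 it was -0.0070 with probe and -0.044 with regional GC correction, the latter past the threshold (limma, adjusted p = 0.00257). The window at 145 to 150 Mb lay at -0.019 with normexp, -0.018 centred on the mode and -0.037 on bright probes. It lay at -0.0096 and -0.065 with probe and regional GC correction, and at -0.037 as a mean (limma, adjusted p = 0.025 for -0.065 and 0.0457 as a mean). That at 45 to 50 Mb lay at -0.016 (mode), -0.012 (bright probes), -0.014 (deposited table), -0.0030 and -0.034 (GC) and -0.0077 (mean). That at 50 to 55 Mb lay at -0.0013 (normexp), -0.010 (mode), -0.0090 (deposited table), -0.033 (regional GC) and -0.014 (mean). That at 195 to 200 Mb lay at -0.0091 (mode), -0.032 (regional GC) and -0.0035 (mean), and that at 0 to 5 Mb at -0.012 (regional GC). Without single arrays these windows ranged from -0.018 to 0.026, -0.017 to 0.039, -0.0013 to 0.036, -0.0032 to 0.037 and -0.011 to 0.061. Cxcr4, dim in both channels, lay at 0.19, Spats2l at 0.0021 and Ankrd44 at -0.0055 with normexp, and 1700019D03Rik at 0.13 on bright probes. The 5 probes at Itln1 and Cd244 averaged 1.08 with normexp and 1.43 to 1.57 otherwise. No paired analysis was possible because all samples belong to 1 group.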
